A study of Mus musculus with 8 samples.

Results

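The genes described here are 8 genes of the catecholamine system: the adrenergic receptors Adra1a, Adra1b, Adrb1 and Adrb3, the noradrenaline-synthesising enzyme Dbh, the noradrenaline transporter Slc6a2 and the monoamine oxidases Maoa and Maob. They were taken by gene symbol from a count table of 55385 genes, and all 8 symbols were found. The libraries were RNA-seq of left ventricle from male C57BL6 mice, with 4 libraries of Mst1-TG mice and 4 of WT mice. Mst1-TG animals carry an Mst1 transgene under the alpha-myosin heavy chain promoter, which is restricted to cardiomyocytes, and develop dilated cardiomyopathy; WT animals are littermates without the transgene. Mst1, encoded by the mouse gene Stk4, is a kinase of the Hippo pathway. The design text places the mice at 3 weeks of age, the extraction protocol says 3 months, and the growth protocol lists both a 3-week and a 5.5-month age, so the age is uncertain between the sources.

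Noradrenaline released by sympathetic nerves, and adrenaline from the adrenal medulla, act on the heart through beta receptors, which couple to Gs and raise cAMP, and through alpha-1 receptors, which couple to Gq and phospholipase C. Dopamine beta-hydroxylase (Dbh) converts dopamine to noradrenaline, the transporter encoded by Slc6a2 returns noradrenaline to the nerve ending, and the monoamine oxidases on the outer mitochondrial membrane oxidise it. The cell bodies of sympathetic neurons lie in ganglia outside the ventricle. In rodent hearts beta-1 is the main beta receptor of cardiomyocytes, while beta-3 is best known from adipocytes.

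Levels are given in CPM (counts scaled to a common library size, with TMM factors), and changes as log2 fold changes of Mst1-TG over WT with their standard error (SE) from edgeR's quasi-likelihood test. A gene is called higher or lower where the Benjamini-Hochberg adjusted p over all 15314 tested genes was below 0.05. The libraries held 21193536 to 23809256 counts. Stk4 averaged 1608 ± 130.3 CPM in Mst1-TG and 27.2 ± 1.88 CPM in WT (SD, n = 4 each), with every Mst1-TG library above every WT library. Mitochondrially encoded genes took 12.9% to 14.4% of counts in Mst1-TG and 21.4% to 23.8% in WT. Mst1-TG 1 and WT 4 stood apart from the other libraries of their groups on the second principal component, which held 7.33% of the variance, and the same 2 libraries held the most counts of the adipocyte markers Adipoq, Plin1, Cfd and Cidec.

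Of the 8 genes, 5 fell in Mst1-TG ventricle (Adra1a, Dbh, Maob, Adrb1 and Adra1b), 0 rose, Maoa did not pass, and Adrb3 and Slc6a2 had too few counts to be tested. For comparison, 42.3% of all tested genes were called, with 21.1% of the tested genes lower and 21.2% higher. Adra1a, Dbh and Maob fell at least 2-fold, which 4.6% of the tested genes did, while 5.81% rose at least 2-fold. In TMM-scaled CPM the 4 Mst1-TG libraries lay wholly below the 4 WT libraries for Adra1a, Adrb1, Dbh and Maob. They did so for 20.1% of the tested genes, lay wholly above in 20.2%, and were apart in either direction in 40.3%. These counts describe the 6 genes that passed the filter on low counts and not all 8. In bulk tissue, fewer cells of a type and less RNA per cell cannot be told apart.

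**Figure D1:**
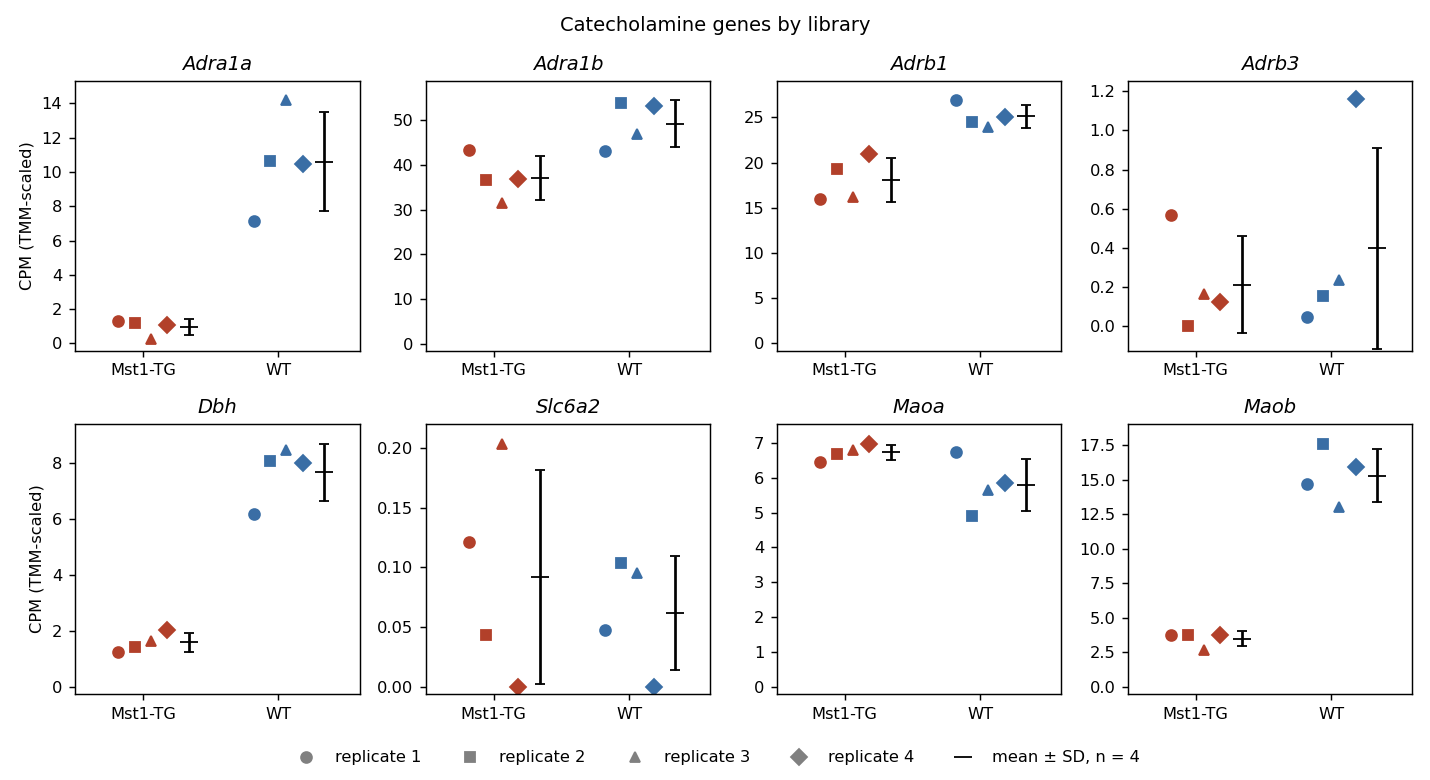
TMM-scaled CPM of each of the 8 genes (vertical axes, linear, a separate range per gene) in the 4 Mst1-TG and 4 WT libraries, with replicate numbers as symbols and mean ± SD as bars. Mst1-TG libraries sit below all WT libraries for Adra1a, Adrb1, Dbh and Maob, overlap them for Adra1b and Maoa, and are near 0 in both groups for Adrb3 and Slc6a2.

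The size of the smaller changes depends on how libraries are scaled. With library totals in place of TMM factors the median of all tested genes moved by 0.285 on the log2 scale. Adra1a, Dbh and Maob were called lower under both scalings, with log2 fold changes of -3.18, -1.98 and -1.86 with library totals. With library totals Adrb1 and Adra1b were not called (-0.19, adjusted p = 0.0957, and -0.13, adjusted p = 0.299), and Maoa was called higher (0.50, adjusted p = 0.00434). Relative to the median of all genes the changes were -0.42 for Adra1b, -0.48 for Adrb1 and 0.21 for Maoa under both scalings; a change of scaling shifts all genes by about the same amount, so this is so by construction.

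**Figure D2:**
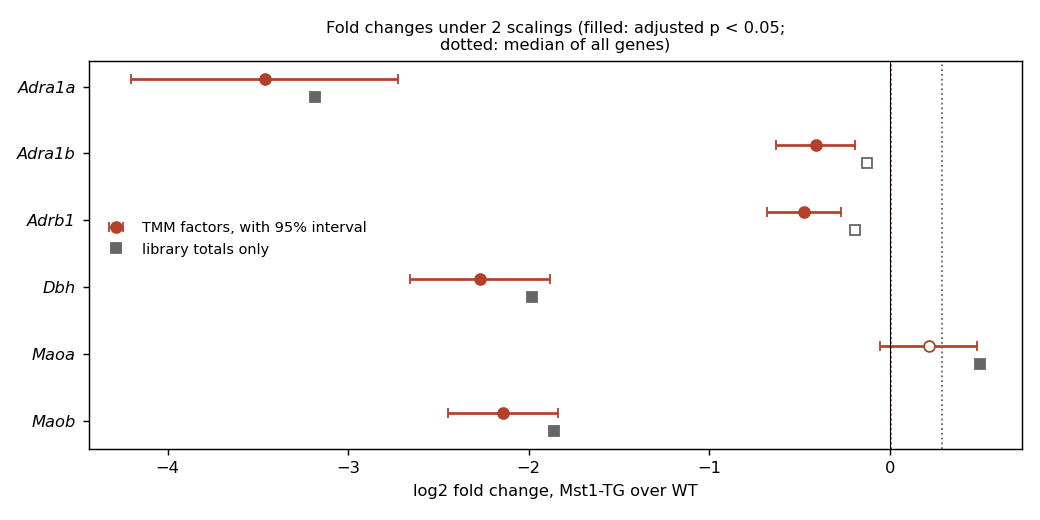
Log2 fold change of Mst1-TG over WT (horizontal axis) for the 6 tested genes, with TMM factors and 95% intervals (circles) and with library totals only (squares); filled symbols passed the adjusted threshold and dotted lines mark the median of all genes. Adra1a, Dbh and Maob stay far below both medians, whereas the calls of Adra1b, Adrb1 and Maoa change with the scaling.

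RefSeq promoter windows (GRCm38.p6) were at hand for Adra1b, Adrb1, Dbh and Maoa, 4 of the 8 genes, with 5 windows between them. Shown are those of a receptor that fell (Adrb1), of the synthesis enzyme that fell (Dbh) and of the oxidase that did not pass (Maoa), searched for letters read by factors of the cAMP and Hippo pathways. In the 250 bases before the start that RefSeq annotates, the cAMP response element half-site TGACG or its reverse complement CGTCA was found once each in Adrb1, Dbh and Maoa, starting 90, 222 and 209 bases before the RefSeq start, and not in either window of Adra1b. Of 32851 windows of the same length, 17.8% hold it. The core letters GGAATG read by TEAD factors, the DNA-binding partners of YAP, or the reverse complement CATTCC, were in none of the 5 windows and in 12.6% of all windows. GENCODE M21 starts Dbh farther upstream, so that by its annotation the whole Dbh window, with the match, lies inside the first exon of the gene and not before it, and only the bases around the match are given. A match is a description of letters and does not show a site in use. The windows of Adrb1 (chr19:56721867-56722116, plus strand) and Maoa (chrX:16619448-16619697, plus strand) and the 25 bases around the match of Dbh (chr2:27165275-27165299, plus strand) read as follows, 5′ to 3′, with the half-site in capitals.
Adrb1: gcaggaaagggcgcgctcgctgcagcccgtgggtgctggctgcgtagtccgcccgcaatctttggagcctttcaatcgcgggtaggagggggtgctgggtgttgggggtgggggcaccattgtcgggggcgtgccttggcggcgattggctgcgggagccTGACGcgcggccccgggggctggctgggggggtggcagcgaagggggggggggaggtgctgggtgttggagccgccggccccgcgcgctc
Maoa: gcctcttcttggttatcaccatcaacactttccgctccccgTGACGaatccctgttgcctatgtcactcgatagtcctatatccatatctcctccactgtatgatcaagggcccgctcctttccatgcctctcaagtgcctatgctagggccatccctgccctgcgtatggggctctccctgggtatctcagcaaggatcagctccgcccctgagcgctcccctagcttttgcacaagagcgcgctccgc
Dbh: ttccaacaggCGTCAgagatttgtt

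Adra1a, the alpha-1A adrenergic receptor, had the deepest fall of the 8 genes. Its gene (ENSMUSG00000045875.13) lies on chromosome 14 from 66635251 to 66771168 in the GENCODE M21 annotation of GRCm38. Its level was 1.30, 1.17, 0.285 and 1.09 CPM in Mst1-TG 1 to 4, against 7.13, 10.6, 14.2 and 10.5 CPM in WT 1 to 4. The groups did not overlap, and Mst1-TG 3 was the lowest of all, at 7 counts where the other Mst1-TG libraries had 26 to 32. The log2 fold change was -3.46 ± 0.33 (SE, 95% interval -4.20 to -2.72, edgeR adjusted p = 1.0e-05), an 11.0-fold lower level. Ordered by fold change from the lowest, Adra1a was gene 14 of the 15314 tested. Without Mst1-TG 3 the change was -3.16, the smallest when any 1 library was left out.

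Adra1b encodes the alpha-1B receptor, and its gene (ENSMUSG00000050541.14) lies on chromosome 11 from 43774606 to 43901210. It had 43.4, 36.5, 31.5 and 36.8 CPM in Mst1-TG 1 to 4, against 43.1, 53.8, 47.0 and 53.2 CPM in WT 1 to 4. Mst1-TG 1 lay just above the lowest WT library, so the groups overlapped. The change was small, at -0.41 ± 0.10 (SE, edgeR adjusted p = 0.00509), or 75.2% of the WT level.

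Adrb1, the beta-1 receptor (ENSMUSG00000035283.5; chromosome 19 from 56722199 to 56733113), is the receptor through which noradrenaline raises cAMP in cardiomyocytes. Its levels were 15.9, 19.3, 16.2 and 20.95 CPM in Mst1-TG 1 to 4, against 26.9, 24.5, 23.97 and 25.04 CPM in WT 1 to 4. Scaled with TMM factors, all Mst1-TG libraries were below all WT libraries. By library totals the groups overlapped, since Mst1-TG 4 had 501 counts of 21837340 and WT 2 had 474 of 21731756. The change was -0.47 ± 0.10 (SE, edgeR adjusted p = 0.00133), which leaves 72.0% of the WT level.

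Adrb3, the beta-3 receptor (ENSMUSG00000031489.15; chromosome 8 from 27225776 to 27250616), was near the limit of detection and did not pass the filter. It had 14, 0, 4 and 3 counts in Mst1-TG 1 to 4, against 1, 3, 5 and 23 counts in WT 1 to 4. Most of the counts came from Mst1-TG 1 and WT 4, and the other 6 libraries held 0 to 5. Summed over the group, Mst1-TG had 21 counts and WT 32, a ratio of 0.555 after scaling with an exact 95% interval of 0.304 to 0.992 that covers counting error only. Without Mst1-TG 1 the Mst1-TG sum was 7, and without WT 4 the WT sum was 9.

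The same 2 libraries stood out for adipocyte markers. Adipoq, the adipocyte hormone adiponectin, had 46, 0, 10 and 1 counts in Mst1-TG 1 to 4, against 6, 4, 1 and 40 counts in WT 1 to 4. Plin1, a lipid droplet coat protein of adipocytes, had 53, 0, 12 and 3 counts in Mst1-TG libraries, against 8, 8, 9 and 39 counts in WT libraries. Ucp1, the uncoupling protein of brown fat, was high in Mst1-TG 1 alone, with 121 counts against 0 to 16 in the other 7 libraries. The summed level of the 9 adipocyte markers ran from 22.3 to 37.4 CPM in Mst1-TG and from 25.1 to 39.4 CPM in WT, most of it from Cidea, which was at 24.6 ± 3.76 CPM in Mst1-TG and 23.8 ± 1.26 CPM in WT (SD, n = 4 each). Elovl3 was at or near 0 throughout. The part of adipocyte RNA in the Adrb3 counts was not tested, and a non-coding gene on the opposite strand, Gm45470, overlaps Adrb3 and had 20 counts in all.

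**Figure D3:**
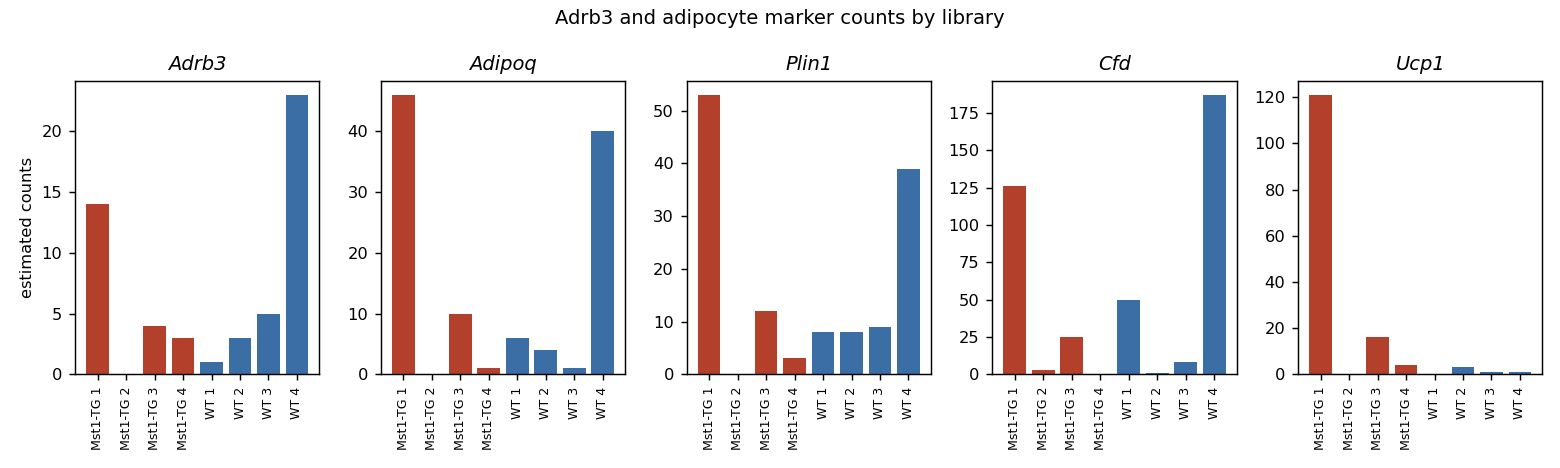
Estimated counts (vertical axes, linear from 0) of Adrb3 and of the adipocyte markers Adipoq, Plin1, Cfd and Ucp1 in each of the 8 libraries, Mst1-TG in red and WT in blue. Mst1-TG 1 and WT 4 have the most counts of Adrb3, Adipoq, Plin1 and Cfd, and Mst1-TG 1 has most of the Ucp1 counts.

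Dbh, which makes noradrenaline, was lower in every Mst1-TG library than in any WT library. The gene (ENSMUSG00000000889.8) lies on chromosome 2 from 27165233 to 27183200. It had 1.26, 1.42, 1.63 and 2.05 CPM in Mst1-TG 1 to 4, against 6.18, 8.06, 8.47 and 8.01 CPM in WT 1 to 4. The log2 fold change was -2.27 ± 0.18 (SE, 95% interval -2.66 to -1.88, edgeR adjusted p = 4.3e-07), a 4.82-fold lower level, and 0.470% of the tested genes had a lower fold change. Th, the enzyme that starts catecholamine synthesis and a defining gene of sympathetic neurons, had 11 counts over the 4 Mst1-TG libraries and 4 over the 4 WT libraries, where Dbh had 153 and 624.

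Slc6a2, the noradrenaline transporter (ENSMUSG00000055368.14; chromosome 8 from 92960079 to 93001667), had 3, 1, 5 and 0 counts in Mst1-TG 1 to 4, against 1, 2, 2 and 0 counts in WT 1 to 4. A difference was not detectable at this depth, since the ratio of the summed counts, 9 in Mst1-TG and 5 in WT, was 1.52 with an exact 95% counting interval of 0.458 to 5.78. Libraries with 0 counts allow up to 0.125 CPM (Mst1-TG 4) and 0.151 CPM (WT 4), the level of 3 counts.

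The monoamine oxidases, which lie next to each other on the X chromosome in opposite orientation with 21463 bases between them, parted. Maob, which prefers phenylethylamine and shares dopamine with Maoa (ENSMUSG00000040147.14; 16709282 to 16817366) had 3.77, 3.71, 2.65 and 3.72 CPM in Mst1-TG 1 to 4, against 14.7, 17.6, 13.0 and 15.9 CPM in WT 1 to 4. Its highest Mst1-TG library was far below its lowest WT library. The change was -2.14 ± 0.14 (SE, 95% interval -2.45 to -1.84, edgeR adjusted p = 9.7e-08), a 4.42-fold lower level.

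Maoa (ENSMUSG00000025037.6; 16619698 to 16687818) prefers noradrenaline and serotonin as substrates. It had 6.44, 6.69, 6.81 and 6.98 CPM in Mst1-TG 1 to 4, against 6.75, 4.91, 5.66 and 5.84 CPM in WT 1 to 4. WT 1 lay within the range of the Mst1-TG libraries, and the other 3 WT libraries lay below them. The change of 0.22 ± 0.12 (SE) did not pass (edgeR adjusted p = 0.188), with a 95% interval from -0.05 to 0.49.

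Whether the members changed unequally was tested on ratios of counts within each library, in which scaling cancels. In all, 5 ratios were compared by an exact two-sided permutation test over the 8 libraries, with Benjamini-Hochberg adjustment over the 5; the smallest p that 4 against 4 can give is 0.0286. The log2 ratio of Maob to Maoa averaged -0.97 ± 0.26 in Mst1-TG and 1.4 ± 0.32 in WT (SD, n = 4 each; exact permutation p = 0.0286, adjusted 0.0476). In counts, Maob stood at 0.389 to 0.585 of Maoa in Mst1-TG libraries and at 2.17 to 3.59 times Maoa in WT libraries, so the order of the genes' counts was opposite in the groups.

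The log2 ratio of Adra1a to Adra1b averaged -5.43 ± 0.84 in Mst1-TG and -2.25 ± 0.37 in WT (SD, n = 4 each), a difference of -3.18 (exact permutation p = 0.0286, adjusted 0.0476). Adra1a to Adrb1 differed by -3.12 (exact permutation p = 0.0286, adjusted 0.0476), with all Mst1-TG libraries below all WT libraries for both ratios. By contrast the log2 ratio of Adra1b to Adrb1 was 1.03 ± 0.28 in Mst1-TG and 0.97 ± 0.20 in WT (SD, n = 4 each), and the groups overlapped (exact permutation p = 0.771, adjusted 0.771). Leaving out single libraries moved that difference between -0.07 and 0.14 around its value of 0.07. Adrb3 to Adrb1 differed by -0.40 with overlapping libraries (exact permutation p = 0.743, adjusted 0.771) and ranged from -1.17 to 0.51 as single libraries were left out. The ratios of Adra1a to Adra1b and of Adra1a to Adrb1 share Adra1a and are not independent. At the smallest p the adjusted value depends on how many of the 5 ratios reached it, for Maob to Maoa too.

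**Figure D4:**
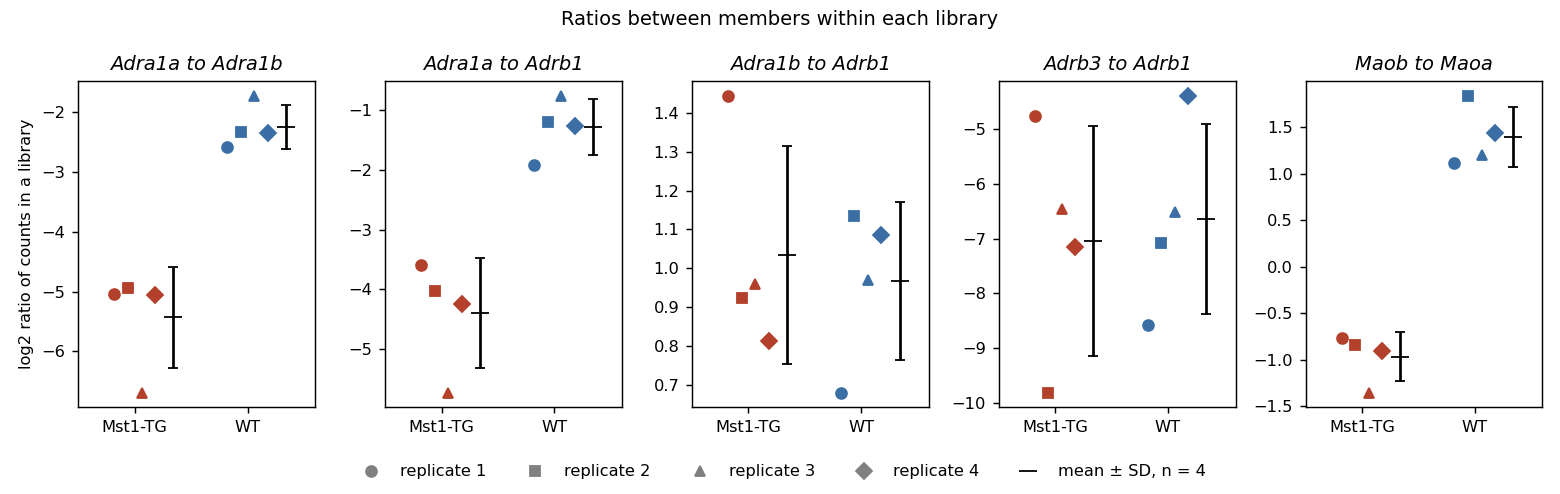
Log2 ratio of the counts of 2 genes within each library (vertical axes, a separate range per ratio) for the 4 Mst1-TG and 4 WT libraries, with mean ± SD as bars. Mst1-TG libraries lie below all WT libraries for Adra1a to Adra1b, Adra1a to Adrb1 and Maob to Maoa, and overlap them for Adra1b to Adrb1 and Adrb3 to Adrb1.

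Levels of different genes were compared per kilobase of merged exons. In Mst1-TG the order was Adra1b (11.0 ± 1.44 CPM per kb), Adrb1 (5.35 ± 0.721), Maoa (1.62 ± 0.0541), Maob (1.24 ± 0.195), Dbh (0.591 ± 0.127), Adra1a (0.110 ± 0.0524), Adrb3 (0.0634 ± 0.0728) and Slc6a2 (0.0147 ± 0.0143; SD, n = 4 each). In WT it was Adra1b (14.6 ± 1.53 CPM per kb), Adrb1 (7.42 ± 0.372), Maob (5.49 ± 0.697), Dbh (2.85 ± 0.378), Maoa (1.39 ± 0.182), Adra1a (1.21 ± 0.330), Adrb3 (0.118 ± 0.152) and Slc6a2 (0.00977 ± 0.00761; SD, n = 4 each). Neighbours in the order did not overlap between libraries except Adra1a with Adrb3 and Adrb3 with Slc6a2 in Mst1-TG, and Maoa with Adra1a and Adrb3 with Slc6a2 in WT. Maoa therefore stood above Maob and Dbh in Mst1-TG and below both in WT.

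Within the alpha-1 family the levels per kilobase can be set against their sum. Adra1a made up 0.781% ± 0.328 of the summed Adra1a, Adra1b and Adra1d level in Mst1-TG and 6.62% ± 1.82 in WT (SD, n = 4 each). Adra1b held 80.8% ± 3.06 in Mst1-TG and 79.3% ± 1.97 in WT, and Adra1d, the alpha-1D receptor of vascular smooth muscle, 18.5% ± 2.94 in Mst1-TG and 14.1% ± 2.86 in WT. Alpha-1B was thus the most abundant alpha-1 transcript in all 8 libraries by this measure, with shares of 76.8% to 83.7%.

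Of 9 further receptor genes (Adra1d, the 3 alpha-2 receptors and the 5 dopamine receptors) 4 could be tested, and 1 fell, with a median log2 fold change of -0.25 against 0.01 for all tested genes. The counts of this and the following lists are to be read beside the shares over all tested genes, 21.2% higher and 21.1% lower. Adra2b, the alpha-2B receptor, fell to 1.51 ± 0.132 CPM in Mst1-TG, against 3.47 ± 0.283 CPM in WT (SD, n = 4 each; log2 -1.20 ± 0.18 SE, edgeR adjusted p = 1.1e-04). Adra1d had a change of -0.03 ± 0.17, Adra2c of -0.30 ± 0.27 and the dopamine D2 receptor Drd2 of -0.21 ± 0.23 (SE), and none of these passed. Drd4 and Drd5 had no counts.

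Among 11 genes for catecholamine synthesis and storage 6 could be tested, of which 3 fell and 1 rose (median -0.03). Gch1 and Pts, which make tetrahydrobiopterin, the cofactor of tyrosine hydroxylase, changed by -0.54 ± 0.11 and -0.56 ± 0.10 (SE), and Qdpr, which recycles it, by -0.37 ± 0.07 (edgeR adjusted p = 0.00102, 4.2e-04 and 0.00114). Cyb561, the vesicle cytochrome that regenerates the ascorbate used by Dbh, rose by 0.68 ± 0.11 (edgeR adjusted p = 2.4e-04). With library totals Gch1 and Qdpr were not called, Pts still was, and 3 genes of the list were called higher and 1 lower.

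Of 11 genes for breakdown and non-neuronal uptake 10 could be tested, and 7 fell while the other 3 did not pass (median -0.62). The extraneuronal monoamine transporter Slc22a3 had 0.243, 0.518, 0.122 and 0.627 CPM in Mst1-TG 1 to 4, against 2.12, 2.74, 2.47 and 4.23 CPM in WT 1 to 4. No Mst1-TG library reached the lowest WT library. Its log2 fold change was -2.93 ± 0.40 (SE, edgeR adjusted p = 5.4e-05). Akr1b3, an aldose reductase that can reduce the aldehydes made by monoamine oxidases, changed by -0.79 ± 0.08, and Aldh2, which oxidises them, by -0.40 ± 0.07 (edgeR adjusted p = 3.4e-06 and 3.0e-04). With library totals 4 of the 7 falls were still called and 3 genes were called higher; Aldh2 was among the falls no longer called.

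Downstream of the beta receptors 5 of 20 tested genes rose and 6 fell (median 0.11), where 21.2% of all tested genes rose and 21.1% fell. Grk5, a kinase that desensitises the receptors, rose to 108 ± 8.67 CPM in Mst1-TG, against 55.2 ± 6.72 CPM in WT (SD, n = 4 each; log2 0.96 ± 0.09 SE, edgeR adjusted p = 1.4e-06). Arrb1, the arrestin that binds phosphorylated receptors, rose by 0.58 ± 0.09 (SE, edgeR adjusted p = 1.8e-04). The cAMP phosphodiesterases Pde4a and Pde4d changed by -0.95 ± 0.07 and -0.82 ± 0.10 (edgeR adjusted p = 3.0e-07 and 2.8e-05). In the other direction, the related phosphodiesterase Pde4b rose by 0.40 ± 0.08 and Grk2, another receptor kinase, changed by -0.25 ± 0.06 (SE, edgeR adjusted p = 0.00112 and 0.00505). Of these 6 calls that of Grk2 was lost with library totals, under which 13 genes of the list were called higher and 2 lower.

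Downstream of the alpha-1 receptors 3 of 14 tested genes rose and 5 fell (median -0.12), where 21.2% of all tested genes rose and 21.1% fell. Rgs2, which limits Gq signalling, fell to 21.5 ± 3.46 CPM in Mst1-TG, against 47.5 ± 9.36 CPM in WT (SD, n = 4 each; log2 -1.15 ± 0.15 SE, edgeR adjusted p = 1.2e-04). Rgs4, of the same family, changed by -0.44 ± 0.08, and the kinases Prkce and Prkd1 by -0.62 ± 0.07 and -0.71 ± 0.11 (edgeR adjusted p = 9.9e-04, 1.0e-05 and 2.3e-04). The 3 that rose were the kinases Prkca (0.38 ± 0.09) and Prkcd (0.55 ± 0.11) and the G protein subunit Gnaq (0.26 ± 0.07; SE, edgeR adjusted p = 0.00362, 0.00151 and 0.00848). With library totals Rgs4 was not called, and the list had 6 genes higher and 3 lower.

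**Figure D5:**
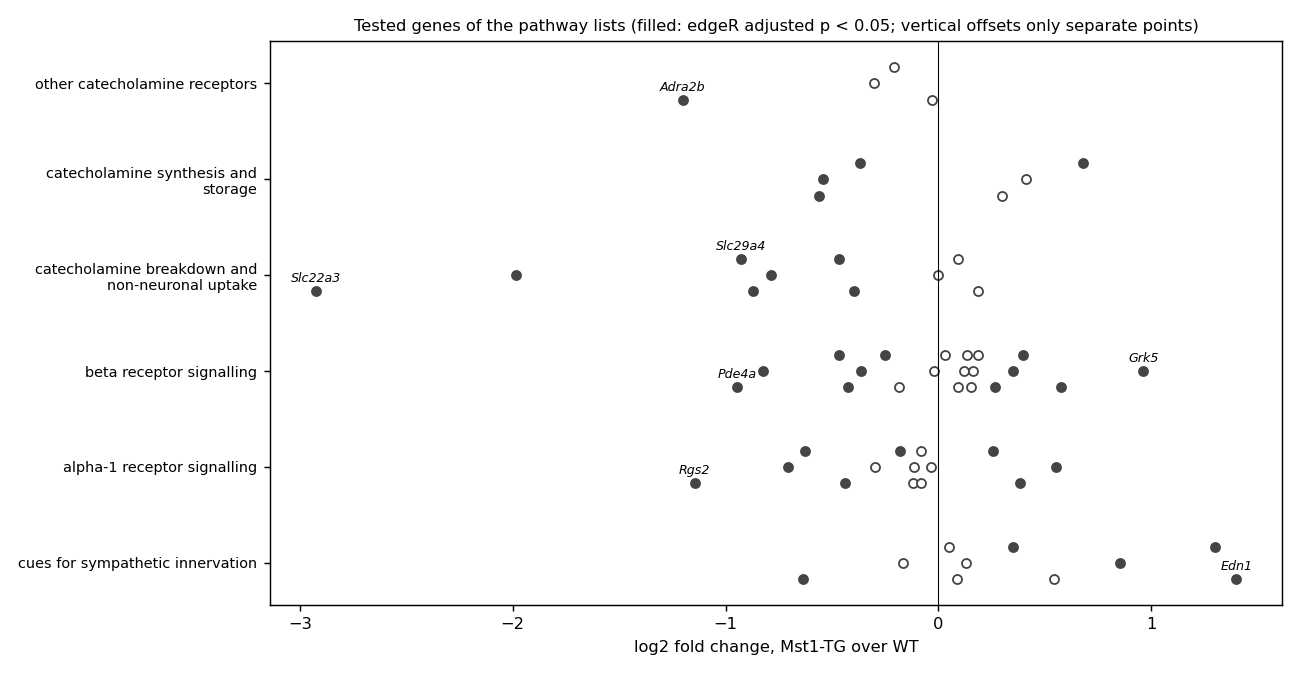
Log2 fold change of Mst1-TG over WT (horizontal axis) for the tested genes of 6 pathway lists (rows); filled points passed the adjusted threshold, and several genes past 0.9 in either direction that passed are named. Slc22a3 lies farthest to the left and Edn1 farthest to the right.

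Of 11 secreted cues that guide or sustain sympathetic axons 10 could be tested, and 4 rose and 1 fell (median 0.24). The peptide Edn1 (endothelin-1) rose to 18.6 ± 4.61 CPM in Mst1-TG, against 7.06 ± 1.46 CPM in WT (SD, n = 4 each). Edn1 rose by 1.401 ± 0.19 on the log2 scale (SE), the cytokine Lif by 0.85 ± 0.26 and the axon repellent Sema3f by 0.35 ± 0.12 (edgeR adjusted p = 9.9e-05, 0.0177 and 0.0316). The 1 fall, of the neurotrophin Ntf3, was not called without Mst1-TG 1 or without WT 4.

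Of 15 sympathetic neuron markers 8 could be tested, and 4 rose and 1 fell (median 0.36, against 0.01 for all tested genes), and with library totals 5 rose and 1 fell. The summed level of the 15 was 80.3 to 91.2 CPM in Mst1-TG and 75.7 to 94.3 CPM in WT. Most of that sum was Hand2, a transcription factor that heart tissue also expresses, at 54.7 ± 3.13 CPM in Mst1-TG and 45.5 ± 5.28 CPM in WT, and Ret, at 8.86 ± 1.71 CPM in Mst1-TG and 24.2 ± 1.75 CPM in WT (SD, n = 4 each). Tubb3, a neuronal tubulin, rose by 1.02 ± 0.26 and the neurotrophin receptor Ngfr by 1.34 ± 0.36, while the neurotrophic receptor Ret fell by 1.45 on the log2 scale (edgeR adjusted p = 0.00633, 0.011 and 7.3e-07). The groups overlapped for Ngfr and not for Tubb3. Mst1-TG 1 held 222 of the 510 Ngfr counts and 100 of the 275 Tubb3 counts of the Mst1-TG libraries. Schwann cell markers summed to 21.2 to 27.4 CPM in Mst1-TG and 19.3 to 24.2 CPM in WT, and of 6 tested Cdh19 rose (0.77 ± 0.18, edgeR adjusted p = 0.00382) while Sox10 and Mal were among the 5 that did not pass.

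Markers of the main cell types of the ventricle moved with the groups. The 10 cardiomyocyte markers summed to 34760 to 45450 CPM in Mst1-TG and 52410 to 61620 CPM in WT, with 7 lower, 0 higher and a median log2 fold change of -0.63. The falls with the smallest p were Tnni3 (-1.33 ± 0.09), Myl3 (-0.92 ± 0.08) and Myl2 (-0.90 ± 0.09), genes of the sarcomere; with library totals 5 of the list were lower and 2 higher. The list median of -0.63 lies beyond the changes of Adrb1 and Adra1b and short of those of Adra1a, Dbh and Maob. The list was divided, however: Actn2 (-0.08 ± 0.09), Ttn (0.07 ± 0.13) and Ryr2 (-0.25 ± 0.10, SE) did not pass. The 2 called higher with library totals were Actn2 and Ttn. The 9 fibroblast markers summed to 6357 to 8835 CPM in Mst1-TG and 2732 to 3633 CPM in WT, and all 9 rose, Postn by 2.52 ± 0.10, Dcn by 1.21 ± 0.09 and Pdgfra by 1.13 ± 0.08 (SE). With library totals all 9 were also called higher. The part of both lists in the changes of the catecholamine genes was not tested.

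Markers of other cells moved less uniformly. These counts use TMM factors. Of 8 endothelial markers 1 rose (Vwf, 0.86 ± 0.15) and 3 fell, among them Kdr (-0.47 ± 0.09) and Tie1 (-0.35 ± 0.12), with sums of 1480 to 2216 CPM in Mst1-TG and 1855 to 2304 CPM in WT. Of 10 smooth muscle and pericyte markers 2 rose and 4 fell, with Cspg4 at 1.37 ± 0.06, Abcc9 at -0.79 ± 0.08 and Kcnj8 at -0.59 ± 0.12, and sums of 1539 to 1789 CPM in Mst1-TG and 2160 to 2451 CPM in WT. Atrial markers, which would mark carried-over atrium, were low, with Bmp10 at 0. Myl7, Myl4 and Sln changed by -1.02 ± 0.34, -0.95 ± 0.32 and -1.28 ± 0.35 (SE, edgeR adjusted p = 0.046, 0.0492 and 0.0164), and the libraries overlapped for Myl4. Stard10 went the other way without passing (0.28 ± 0.11, edgeR adjusted p = 0.0508). The 5 atrial markers summed to 57.0 to 124 CPM in Mst1-TG and 111 to 154 CPM in WT. With library totals only the fall of Sln was still called, and Stard10 was called higher. None of the 8 tested leukocyte markers and none of the 6 erythroid markers passed in edgeR, with Mrc1, Cd79a and Itgam at 0.29 ± 0.12, -0.90 ± 0.40 and 0.26 ± 0.13, and Hba-a1, Hba-a2 and Hbb-bs at -0.79 ± 0.33, -0.76 ± 0.33 and -0.68 ± 0.31 (SE). Their sums were 267 to 358 and 3593 to 7655 CPM in Mst1-TG and 242 to 332 and 5859 to 14910 CPM in WT. With library totals the endothelial list had 1 higher and 0 lower, the smooth muscle and pericyte list 5 and 2, the atrial list 1 and 1, the leukocyte list 5 and 0, the erythroid list 1 and 0, and the adipocyte list 1 (Cidea) and 0.

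Patterns over the 8 libraries were compared among 11877 genes by the root mean square difference of log2(CPM + 0.5). Each gene was centred on its own mean. The offset of 0.5 CPM shrinks the fold differences of genes near 0, such as Adra1a in Mst1-TG. The genes most like each member are given here. For Dbh they were the kinase Mylk4 (difference 0.107) and Klhl33 (0.150), with log2 fold changes of -1.88 and -1.96. For Maob they were Mtfp1, a mitochondrial fission protein (0.119), and the retinoid receptor Rxrg (0.126), with log2 fold changes of -1.95 and -2.004. For Adra1a they were the phospholipase Pla2g5 (0.306; log2 fold change -2.501) and Lrrc15 (0.312; log2 fold change -2.82). For Adrb1 they were Wscd1 (0.0634) and Churc1 (0.0658), for Adra1b the RNA-binding protein Rbm4 (0.0496) and Phospho2 (0.0617), and for Maoa the demethylase Tet1 (0.0416) and the chromatin remodeller Smarca2 (0.0455). Flat profiles give small differences by construction, so the values compare within a member and not between members. The difference between the groups is part of each pattern. For Adra1a, Dbh and Maob, where it is large, genes with a like fold change are therefore picked by construction.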

How the data were processed

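RNA-seq was measured in 8 left ventricle libraries. Per the labels' protocols, directional libraries were built from 200 ng of total RNA after removal of ribosomal RNA. The submitters' processing notes name bcl2fastq 2.19.1.403 and the pseudoaligner kallisto 0.46.0. Build, annotation, strand setting and filters were not given in the sources used here. The authors deposited estimated counts per gene as whole numbers, unscaled, so rounding changed nothing. Pseudoalignment divides reads shared by similar transcripts, and with no stated strand setting a gene on the opposite strand may share reads.

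The test was run with edgeR 4.0.16 (R 4.3.3): filterByExpr (minimum count 10, minimum total 15) left 15314 of 55385 genes, followed by TMM factors, the robust quasi-likelihood F test on group alone and Benjamini-Hochberg adjustment over all tested genes (threshold 0.05). The SE follows from the fold change and the square root of F. The median SE was 0.111. The test was tried on simulated data. DESeq2 1.42.0 and limma 3.58.1 served as alternatives, with other scalings, no filter, a replicate block and each library left out. Ratios used an offset of 0.5 counts. Positions and exon lengths come from GENCODE M21, in which all 8 identifiers match with version and symbol; promoter sequences are RefSeq's.

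Groups come from the sample titles. Replicate numbers 1 to 4 occur in both groups without any stated pairing, and nothing says that each library is a separate animal, so the p-values speak of the spread among these libraries, which may be technical. Replicate pairs differed beyond counting noise (chi-square over its degrees of freedom 7.81 to 23.6). The members and lists were chosen with earlier results of these data known. Genes named are Stk4, the 8 members, up to 4 tested genes with the smallest p in each pathway list, up to 3 in each marker list and any defining marker near 0, and the 2 genes most like each tested member with a mean log2 CPM of at least 1; other list genes were named after their values were seen. Some genes that this choice names are not reported here.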

Additional observations from a re-analysis of the deposited data

Results flagged for a closer look

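A sample far from the other 3 of its group was found in 6 of 134 groups of 4 libraries checked, where chance alone gives about 1 in 20. Maob in Mst1-TG 3 was at 2.65 CPM, against 3.71 to 3.77 CPM in the other Mst1-TG libraries. The log2 ratio of Adra1a to Adra1b in the same library was -6.69, against -5.05 to -4.94 in the other Mst1-TG libraries. Cyb561 in Mst1-TG 1 was at 24.1 CPM, against 32.8 to 33.8 CPM in the others of its group. In WT, Cd79a in WT 4 was at 3.23 CPM (0.944 to 1.33 CPM in the others), Kcnj8 in WT 2 at 72.8 CPM (88.6 to 90.5 CPM) and Prkd1 in WT 1 at 8.26 CPM (9.51 to 9.68 CPM).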

How the results depend on the processing

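Adra1a, Dbh and Maob were called lower in all 15 alternatives, with log2 fold changes of -3.65 to -3.16, -2.41 to -1.98 and -2.22 to -1.86. Library totals as the only scaling gave 3 of the 8 genes lower and 1 higher, with Adra1b at -0.13, Adrb1 at -0.19 and Maoa at 0.50; these 3 genes kept their calls in the other 14 alternatives. That scaling also called 3 genes higher and 1 lower for synthesis and storage, 3 higher and 4 lower for breakdown and uptake, 13 higher and 2 lower for beta signalling, 6 higher and 3 lower for alpha-1 signalling and 0 lower among the innervation cues. Over all genes it gave 7409 higher and 1592 lower, against 3244 and 3238 with TMM factors. Alternatives for lists were chosen after seeing the data: without WT 4, 1 breakdown gene was called higher, and without Mst1-TG 1 or without WT 4, 0 innervation cues were called lower. For the 3 ratios that passed, leaving out 1 library keeps p at the smallest value possible and so tests nothing; their differences ranged from -3.35 to -2.77, -3.38 to -2.67 and -2.46 to -2.22. Same-numbered libraries did not deviate together (correlations -0.165 to 0.072), and with a replicate block 6187 genes were called against 6482, with no change of call among the 8 genes. Without a filter Adrb3 and Slc6a2 did not pass (adjusted p = 0.377 and 0.782). The depth limits Adrb3, Slc6a2 and Th, which rest on few counts.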

Other observations

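Several receptor and vesicle genes had too few counts to be tested and are given as sums over the 4 libraries of a group, chosen after their values were seen. The sums are not scaled, and the libraries of the groups overlapped for every gene named here, so no difference is read from them. The alpha-2A receptor Adra2a had 17 counts in Mst1-TG (8, 6, 2 and 1 in Mst1-TG 1 to 4) and 3 in WT, all from WT 2. The dopamine D1 receptor Drd1 had 49 in Mst1-TG and 27 in WT. The vesicular monoamine transporter Slc18a1 had 44 counts in Mst1-TG and 18 in WT, and the granule protein Chgb 42 in Mst1-TG and 19 in WT. Pnmt, which makes adrenaline from noradrenaline, had 32 counts in Mst1-TG and 28 in WT. Npy, a cotransmitter of sympathetic nerves, had 21 counts in Mst1-TG and 7 in WT, of which 6 came from WT 1. The synaptic protein Snap25 had 3 in Mst1-TG and 21 in WT, of which 15 came from WT 1.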
